A study of Phyllostachys edulis with 2 samples.

Results

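PH02Gene42759 is a moso bamboo gene that the study assigned to the SRS (SHI RELATED SEQUENCE) family of transcription factors (TFs), and its tables describe the protein as SHI RELATED SEQUENCE 1-like. It is 1 of 50936 genes counted in single-cell RNA sequencing (scRNA-seq) libraries of basal root tips, and its UMIs, its cell groups and the genes detected with it are described here. The gene was selected on its own measured pattern, since the study's table of TFs placed its highest mean among ground-tissue clusters in Cluster 1. Its levels over clusters are therefore a description and carry no test.

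SRS proteins are plant-specific TFs with a RING-like zinc finger. In Arabidopsis, the family member STY1 binds the promoter of the auxin biosynthesis gene YUC4, SHI acts as a repressor of gibberellin responses, and LRP1 is expressed in lateral root primordia. The root ground tissue, between epidermis and vascular cylinder, comprises cortical layers such as exodermis, sclerenchyma, parenchyma and endodermis.

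Protoplasts were released from basal root tips of about 2 cm by 3 h of enzyme digestion, from Phyllostachys edulis plants that were 6 to 8 weeks old. There were 2 biological replicates of this condition, each a 10x Genomics 3' library, and no treated or mutant group. Basal roots grow from the base node of the bamboo shoot. The digestion precedes the counts and its effect on PH02Gene42759 was not tested, as every cell went through it.

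After a filter on genes and UMIs per cell, 7653 cells of replicate 1 (median 3130 UMIs) and 7651 cells of replicate 2 (median 3565 UMIs) remained. The replicates shared 15 barcode sequences. The cells formed 14 clusters, which carry the number of the study's cluster whose marker genes matched them best, and 25 of 28 pairs of marker and cluster had their highest level in the matched cluster. A single cluster was the best match of both Cluster 0 and Cluster 5, and 2 clusters matched none. In the study, Clusters 0, 1, 5 and 10 are ground tissue, Clusters 7, 8, 11 and 12 root cap, Cluster 6 epidermis, Cluster 9 initial cells and Cluster 2 transition cells, while Clusters 3 and 4 are undefined. The study's own sources place the marker PH02Gene45651 in Cluster 1 (table of differential genes), Cluster 0 (text) and Cluster 5 (in situ hybridization). It counted for Clusters 1 and 5 here, and with it counted for Cluster 0, for Cluster 5 alone or for no cluster, Clusters 0, 1, 5 and 10 were matched as before, in a check chosen after seeing the data. No cell type was assigned anew. The sums of UMIs per cluster and replicate held 121799 to 7292300 UMIs.

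PH02Gene42759 was a gene of low level that few cells showed. Replicate 1 held 477 of its UMIs in 389 cells (5.08%), and replicate 2 held 587 UMIs in 482 cells (6.30%). This corresponds to 13.1 CPM, its UMIs scaled to a total of 1000000, in replicate 1 (95% Poisson interval 11.95 to 14.3) and 13.9 CPM in replicate 2 (12.8 to 15.1). Among detected genes it ranked 9174 of 37802 in replicate 1 and 8736 of 38167 in replicate 2. Of the 871 cells with a UMI, 716 had a single UMI, 127 had 2, 21 had 3, 4 had 4 and 3 had 5. A cell without a UMI can therefore still express the gene. Intervals cover counting error only, and 2 libraries do not give the spread over many plants.

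Over all cells, the UMIs of PH02Gene42759 concentrated in matched Cluster 1 and in a small unmatched cluster. Matched Cluster 1 (2367 cells) had 113 CPM in replicate 1 (180 UMIs, interval 96.9 to 130) and 133 CPM in replicate 2 (197 UMIs, 115 to 153), a mean of 123 ± 14.1 CPM (SD, n = 2). It held 35.4% of all UMIs of the gene in 15.5% of the cells. The small unmatched cluster (118 cells) had 123 CPM from 19 UMIs and 122 CPM from 17 UMIs, with intervals of 73.8 to 192 and 71.1 to 195. Matched Cluster 1 over this cluster gave ratios of 0.919 and 1.09, so the order of these 2 clusters differed between replicates. The cluster matched to Clusters 0 and 5 (3851 cells) came next, with 26.5 and 30.7 CPM, and matched Cluster 1 lay 4.25-fold and 4.32-fold above it.

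The small cluster was set apart by genes that hardly occurred elsewhere. PH02Gene14559 had 1911 and 1794 CPM there, against at most 18.0 and 16.8 CPM in any other cluster, and PH02Gene29832 had 1420 and 1249 CPM against at most 11.3 and 11.4 CPM. These genes were chosen after their values were seen. PH02Gene45651, a ground-tissue marker of the study, had 1304 and 1299 CPM in the small cluster, less than the 2862 and 2878 CPM of matched Cluster 1 and close to the 1385 and 1314 CPM of the cluster matched to Clusters 0 and 5.

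All other clusters lay below, without a sharp limit. Matched Cluster 11 had 24.4 and 19.3 CPM and matched Cluster 8 had 16.0 and 17.7 CPM, both root cap clusters of the study. The larger unmatched cluster (615 cells) had 11.3 and 14.5 CPM, matched Cluster 3 had 11.6 and 10.9 CPM, and matched Cluster 4 had 6.80 and 6.17 CPM. From this point the neighbours in the order overlapped between replicates: matched Cluster 6 had 4.85 and 4.29 CPM, matched Cluster 7 had 4.66 and 4.34, matched Cluster 9 had 2.22 and 4.64, and matched Cluster 2 had 2.02 and 3.97. The larger unmatched cluster and matched Cluster 3 overlapped as well.

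In the reported clustering, matched Cluster 10, which the study places in the ground tissue, did not share the level of matched Cluster 1. Its 234 cells held 2 UMIs in replicate 1 (6.22 CPM) and 0 UMIs in replicate 2, where a floor of 3 counts is 10.2 CPM. Matched Cluster 12 (76 cells) held 0 UMIs in both replicates, where the floor of 3 counts is 24.6 CPM in each and the exact 95% intervals reach 30.3 and 30.2 CPM.

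**Figure D1:**
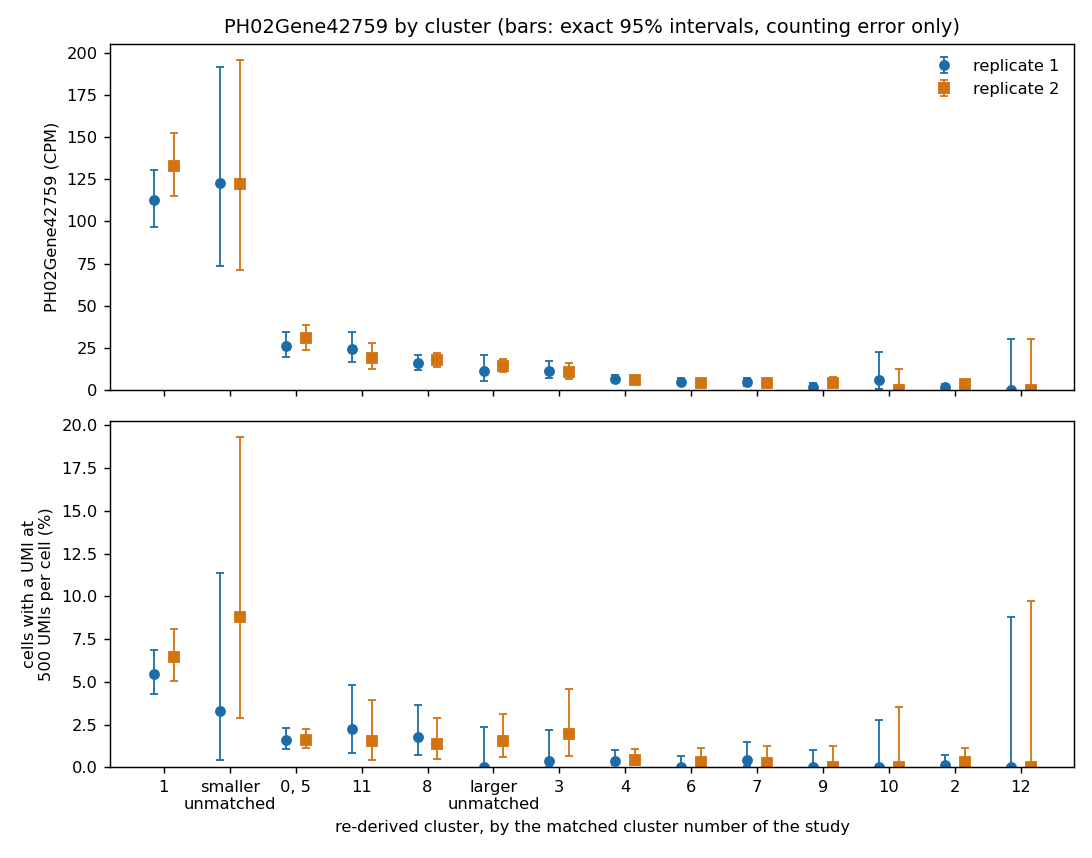
PH02Gene42759 in 14 re-derived clusters, as CPM (upper panel) and as the percentage of cells with a UMI after thinning every cell to 500 UMIs (lower panel). Circles are replicate 1, squares replicate 2, and bars are exact 95% intervals. Matched Cluster 1 (113 and 133 CPM) and the smaller unmatched cluster (123 and 122 CPM) stand above the cluster matched to Clusters 0 and 5 (26.5 and 30.7 CPM).

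Depth differed widely between these clusters, so shares of cells depend on it. The median was 1171 UMIs per cell in matched Cluster 1, 995 in the cluster matched to Clusters 0 and 5, and 7920 in matched Cluster 8. At full depth, 10.5% and 13.3% of matched Cluster 1 cells had a UMI of PH02Gene42759, nearly the same as the 10.5% and 13.6% of matched Cluster 8. With every cell thinned to 500 UMIs, the shares were 5.46% (exact binomial interval 4.28 to 6.84) and 6.46% (5.07 to 8.09) in matched Cluster 1, against 1.80% and 1.34% in matched Cluster 8. The cluster matched to Clusters 0 and 5 had 1.61% in each replicate, and the small unmatched cluster 3.28% and 8.77%, from 2 and 5 cells. Matched Cluster 2, the lowest cluster with a UMI in both replicates, had a median of 7388 UMIs and shares of 0.126% and 0.315%.

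Relative to the ground-tissue marker PH02Gene45651, the low level of PH02Gene42759 outside the ground tissue was not always low. Per 1000 UMIs of PH02Gene45651, matched Cluster 1 had 39.4 and 46.1 UMIs of PH02Gene42759, the small unmatched cluster 94.1 and 93.9 and the cluster matched to Clusters 0 and 5 had 19.1 and 23.4. Several clusters outside the ground tissue lay close to matched Cluster 1, with 38.9 and 39.1 for matched Cluster 3, 42.5 and 41.0 for matched Cluster 6 and 34.3 and 35.5 for matched Cluster 11. The ratio was 42.9 and 78.9 for matched Cluster 9, 31.0 and 28.6 for matched Cluster 4, 25.6 and 35.2 for matched Cluster 8, and 26.2 and 43.3 for the larger unmatched cluster. Matched Cluster 7, with 7.99 and 7.48, and matched Cluster 2, with 12.1 and 23.3, were lower. This depended on the marker. Per 1000 UMIs of the Cluster 1 marker PH02Gene04869, matched Cluster 1 had 142 and 166 UMIs of PH02Gene42759. Matched Cluster 11 (152 and 142) and matched Cluster 3 (128 and 120) stayed near it. Matched Cluster 6 (64.8 and 61.3), matched Cluster 4 (66.9 and 62.9), matched Cluster 8 (77.6 and 85.9) and matched Cluster 9 (14.7 and 31.1) lay far below. The part of free RNA in the low levels outside the ground tissue was not tested, and doublets were not removed.

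Within matched Cluster 1 the gene was unevenly spread over cells. Cells with 2 or more UMIs numbered 36 in replicate 1 and 42 in replicate 2, against 13.2 and 18.1 expected if all cells of the cluster had the same CPM and Poisson counts. The cluster matched to Clusters 0 and 5 had 4 and 11 such cells against 0.880 and 1.40 expected. Among 15 nearest neighbours within matched Cluster 1, at 500 UMIs per cell, 6.77% and 9.30% of the neighbours of cells with a UMI had one too, against 4.64% and 7.28% of the neighbours of cells without. The ratios were 1.46 and 1.28, although PH02Gene42759 was not among the genes used to place the cells.

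The level also differed with depth within clusters. Over the shallowest, middle and deepest tier of matched Cluster 1 cells, with equal numbers of cells, PH02Gene42759 had 123, 148 and 86.8 CPM in replicate 1 and 190, 165 and 90.5 CPM in replicate 2. In the cluster matched to Clusters 0 and 5 the tiers had 44.2, 26.8 and 18.5 CPM in replicate 1 and 47.3, 44.7 and 14.6 CPM in replicate 2. The deepest tier was the lowest in both clusters. The ground subcluster with the highest level, described next, ran differently, with 128, 187 and 366 CPM over its tiers in replicate 1 and 239, 412 and 320.4 CPM in replicate 2. There the shallowest tier was the lowest, and the part of depth in the levels was not tested.

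Reclustering of the 6452 ground cells (matched Clusters 0, 5, 1 and 10) gave 8 subclusters, numbered here by the level of PH02Gene42759, which was itself left out of the clustering. Subcluster 1 (768 cells, median 931 UMIs) had 254 CPM in replicate 1 (92 UMIs, interval 205 to 311) and 330 CPM in replicate 2 (132 UMIs, 276 to 391), a mean of 292 ± 53.6 CPM (SD, n = 2). The other ground cells had 40.2 and 36.9 CPM, which gives ratios of 6.31 and 8.93. Subcluster 1 was picked by the level of PH02Gene42759, so these ratios are a description. This subcluster held 224 UMIs of the gene, 21.1% of all its UMIs in 5.02% of all cells. Of its cells, 612 came from matched Cluster 1 and 154 from the cluster matched to Clusters 0 and 5. After thinning to 500 UMIs, 10.6% and 13.1% of its cells had a UMI of the gene, and 17.2% and 23.1% at full depth.

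Subcluster 3 (1122 cells) followed with 86.4 and 94.3 CPM, and it too came mainly from matched Cluster 1 (993 cells). Subcluster 2 lay between them with 196 and 77 CPM, but it had only 27 cells with 9 and 3 UMIs, so its place in the order rests on few counts. All of its cells came from matched Cluster 1. Yet the Cluster 10 marker PH02Gene15920 had 10493 and 11370 CPM there, near the 12449 CPM of matched Cluster 10. The low level in matched Cluster 10 therefore need not hold for all cells rich in that marker. Subcluster 4 had 39.1 and 36.2 CPM and subcluster 5 had 32.1 and 38.4 CPM, which overlapped. Subclusters 6, 7 and 8 lay between 4.40 and 19.3 CPM and overlapped between replicates as well. Matched Cluster 1 was thus not uniform for PH02Gene42759, as subclusters 1 (254 and 330 CPM) and 3 (86.4 and 94.3 CPM) both came mainly from it. Subcluster 8 had 15.04 and 4.40 CPM, but its 446 cells were mixed. Of them, 217 came from matched Cluster 1 and 223 from matched Cluster 10, so its level is not that of the 217 cells. Within subcluster 1, 21 and 31 cells had 2 or more UMIs, against 10.2 and 18.7 expected at a uniform CPM.

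PH02Gene42759 and the 4 ground-tissue markers plotted did not have their maximum in the same ground cells. Of the 4 markers plotted, the Cluster 1 marker PH02Gene04869 was the one that was higher in subcluster 1, with 715 and 754 CPM against 471 and 433 CPM in the other ground cells, short of 2-fold. PH02Gene45651 had 701 and 714 CPM in subcluster 1, against 2017 and 1932 CPM in the other ground cells. The Cluster 5 marker PH02Gene29708 was at 179 and 180 CPM in subcluster 1 and at 773 and 770.3 CPM elsewhere in the ground cells, and the Cluster 10 marker PH02Gene15920 at 3080 and 2879 CPM against 3635 and 3262 CPM. PH02Gene04869 and PH02Gene45651 were highest in subcluster 3, as the plot of subclusters shows. For PH02Gene45651, subcluster 3 (3909.9 and 4053 CPM) was only slightly above subcluster 5 (3869.5 and 3607 CPM). Among ground-tissue markers not plotted, PH02Gene28983 (Cluster 0) was also higher in subcluster 1, at 1982 and 1818 CPM against 1581 and 1451 CPM. PH02Gene05035 (Cluster 0) was lower there, at 809 and 799 CPM against 1515 and 1789 CPM. So was PH02Gene36478 (Cluster 10), at 196 and 157 CPM against 338 and 265 CPM.

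**Figure D2:**
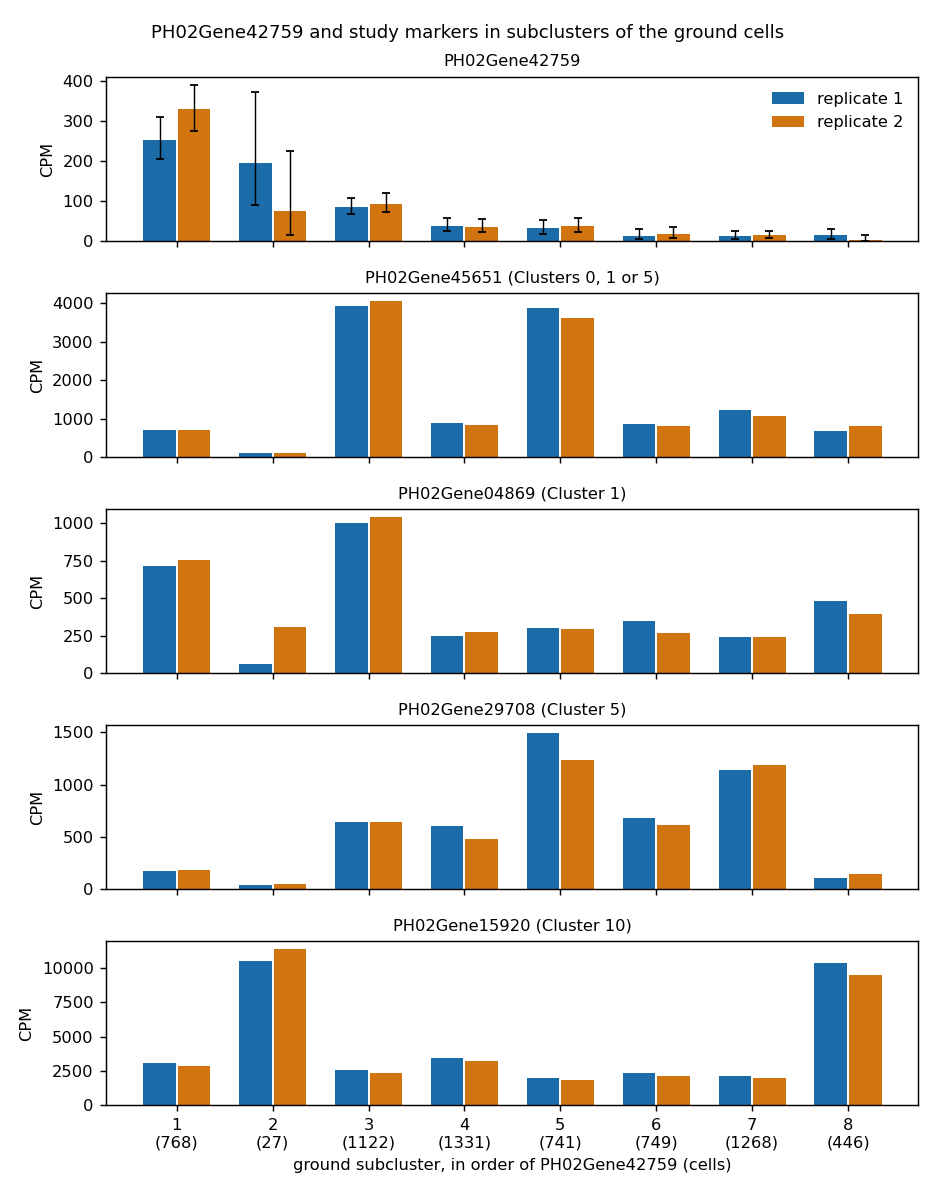
CPM of PH02Gene42759 and of 4 study markers (the study's clusters in parentheses) in 8 subclusters of the ground cells, in order of PH02Gene42759, with the number of cells in parentheses. Bars are replicates, and error bars in the upper panel are exact 95% Poisson intervals. PH02Gene42759 is highest in subcluster 1 (254 and 330 CPM), where PH02Gene45651 has 701 and 714 CPM.

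Other genes marked the same subcluster more sharply than PH02Gene42759. By the lower of the log2 ratios of subcluster 1 over the other ground cells in the 2 replicates (CPM + 10), PH02Gene42759 ranked 9 of 6781 genes with at least 100 UMIs per replicate in the ground cells. A high rank of PH02Gene42759 follows from the choice of subcluster 1 by its level. PH02Gene03673 was first with 295 and 395 CPM against 26.4 and 26.5 CPM. PH02Gene24658, described as an ABC transporter of the B family, had 384 and 355 CPM against 41.6 and 37.2 CPM. PH02Gene05243, described as an anthranilate O-methyltransferase, was the most abundant of the first 9 with 1507 and 2095 CPM against 233 and 217 CPM. These genes were named after their values were seen, and genes used in the clustering had to differ between subclusters.

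Genes detected together with PH02Gene42759 were then sought within matched Cluster 1. Cells with a UMI of the gene numbered 135 and 144, with medians of 1168 and 1253 UMIs of other genes, against 1148 and 940 cells without, with medians of 1116 and 1208. For 1444 genes with at least 200 UMIs in the cluster and replicate, UMIs in cells with PH02Gene42759 were set against those expected from cells without it in deciles of UMIs per cell. In both replicates, 11 genes had a ratio of at least 1.5 (0.762% of the genes compared) and 15 genes had a ratio lower than 1 by the same factor (1.04%). The log2 ratios of the 2 replicates correlated with r = 0.35 across genes, which are not independent replicates, and most single genes had ratios near 1.

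Tetraspanin-8, PH02Gene35378, had the firmest counts among the 10 highest ratios. Tetraspanins are membrane-spanning proteins of the plasma membrane. Its 339 UMIs in replicate 1 against 174 expected gave a ratio of 1.95 (Poisson interval 1.75 to 2.17), and 404 against 227 in replicate 2 gave 1.78 (1.61 to 1.96). It was abundant in matched Cluster 1 as a whole, at 1081 and 1226 CPM.

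The highest ratio by the replicate nearer 1 belonged to PH02Gene28959, described as an AAA-ATPase, with 56 UMIs against 27.5 expected in replicate 1 (ratio 2.04) and 68 against 34.1 in replicate 2 (ratio 2.00). PH02Gene34354, a putative disease resistance protein, had ratios of 1.94 and 2.44. The cell wall protein EXORDIUM-like PH02Gene08571 had 1.92 and 1.88, the polyol transporter PH02Gene09765 had 2.59 and 1.87, and the F-box protein PH02Gene05865 had 2.00 and 1.83.

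PH02Gene43969 had ratios of 2.11 and 1.80 and is described as a receptor of tyrosine-sulfated glycopeptides, a kinase at the plasma membrane. PH02Gene41547, described as the transcription elongation factor SPT6, had 1.78 and 1.79. The WRKY factor PH02Gene17218 had 1.84 and 1.52, and PH02Gene31170, which the tables used here do not describe, had 1.82 and 1.60. The lower interval bounds of all 10 genes lay above 1 in both replicates, without correction for the 1444 genes looked at. The 10 genes were chosen by this same ratio, so these bounds do not add support.

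The genes lowest in cells with PH02Gene42759 included the histone demethylase JMJ706-like PH02Gene32673, with 16 UMIs against 35.9 expected (ratio 0.445) and 15 against 34.2 (0.439). PH02Gene01546, a mitochondrial calcium uniporter, had ratios of 0.455 and 0.556, and PH02Gene28273, related to ROOT HAIR DEFECTIVE 3, had 0.547 and 0.596. PH02Gene42057 had 0.527 and 0.515, and PH02Gene18218 had 0.353 and 0.597. All 5 had fewer UMIs than expected in both replicates, which follows from how they were chosen.

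**Figure D3:**
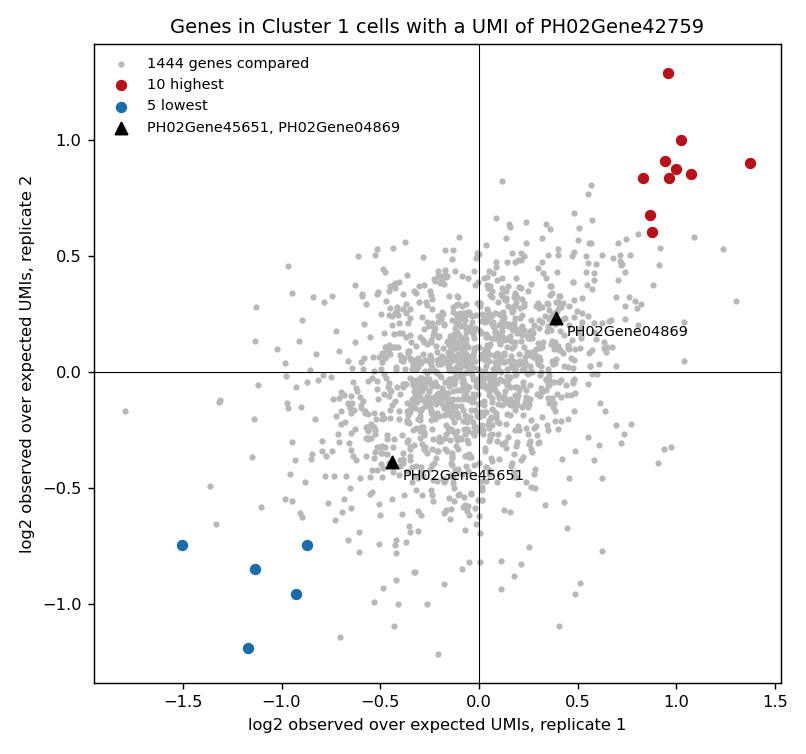
Observed over expected UMIs of 1444 genes in matched Cluster 1 cells with a UMI of PH02Gene42759, on the log2 scale, replicate 1 against replicate 2. Red points are the 10 highest and blue points the 5 lowest genes by the replicate nearer 1, and triangles are the ground-tissue markers PH02Gene45651 and PH02Gene04869. PH02Gene45651 lies below 0 in both replicates (ratios 0.737 and 0.764) and PH02Gene04869 above (1.31 and 1.17).

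The ground-tissue markers again differed among themselves. PH02Gene45651 had a ratio of 0.737 (0.667 to 0.812) in replicate 1 and 0.764 (0.696 to 0.837) in replicate 2, whereas the Cluster 1 marker PH02Gene04869 had 1.31 (1.13 to 1.52) and 1.17 (1.01 to 1.35). The Cluster 5 marker PH02Gene29708 had 0.557 and 0.783, and the Cluster 0 marker PH02Gene28983 had 0.931 and 0.748. The remaining ground-tissue markers fell on different sides of 1 in the replicates. These were PH02Gene05035 (0.924 and 1.01), PH02Gene15920 (1.10 and 0.969) and PH02Gene36478 (1.23 and 0.809). In the cluster matched to Clusters 0 and 5, cells with a UMI of PH02Gene42759 held 112 and 123 UMIs of PH02Gene45651 and PH02Gene04869 together, against 93.1 and 95.3 expected from cells without it (ratios 1.203 and 1.29).

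The co-detected genes were largely those of subcluster 1. Of the 10 highest, 9 were at least 2-fold higher in subcluster 1 than in the other ground cells in both replicates (CPM + 1), while 3.79% of 6781 genes were. PH02Gene08571 had 453 and 594 CPM in subcluster 1 against 85.8 and 71.1 CPM in the other ground cells, and PH02Gene35378 had 1995 and 2330.1 CPM against 485 and 448 CPM. The exception was PH02Gene31170, with 146 and 145 CPM against 135 and 126 CPM. Of the 5 lowest, 3 were at least 2-fold lower in subcluster 1 (3.6% of all genes), among them PH02Gene01546 with 144 and 145 CPM against 561 and 637 CPM. With expected counts taken within subcluster and depth tier, all 10 genes stayed above a ratio of 1 in both replicates, and 4 of them at or above 1.5. Both views use the same cells, so the second does not add independent evidence.

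Over the 14 clusters, few genes had a profile like that of PH02Gene42759. Of 17716 genes with at least 100 UMIs in each replicate, 3 (0.0169%) had a Pearson r of at least 0.9 with it in both replicates on log2(CPM + 1), and the median of the lower r was -0.02. The profile of PH02Gene42759 itself correlated between the replicates with r = 0.91. The 14 points share libraries and depth, and the clusters of few UMIs weigh on r through the pseudocount.

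These 3 genes were PH02Gene45343 (r = 0.95 and 0.96), PH02Gene33944 (0.93 and 0.98) and PH02Gene37432 (0.94 and 0.93). All were of low level, with 21.9 and 22.2, 18.8 and 19.5, and 45.7 and 46.5 CPM in matched Cluster 1. PH02Gene04984, PH02Gene02554, PH02Gene45354, PH02Gene25031, PH02Gene31274, PH02Gene04032 and PH02Gene35276 completed the 10 most alike, with a lower r between 0.85 and 0.88. Of the 10, only PH02Gene02554 has a description in the tables used, as a membrane transporter of anions, and it was the most abundant with 437 and 453 CPM in matched Cluster 1. Matched Cluster 1 was the highest cluster of 6 genes and the small unmatched cluster that of the other 4, such as PH02Gene04984 with a mean of 71.0 CPM there against 19.1 CPM in matched Cluster 1.

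A like profile over clusters did not imply a like place within the ground cells. Only 3 of the 10 genes had enough UMIs for that comparison. PH02Gene37432 had 110.4 and 84.9 CPM in subcluster 1 against 25.3 and 21.3 CPM in the other ground cells, whereas PH02Gene04032 had 41.4 and 44.95 CPM against 43.0 and 30.9 CPM and PH02Gene02554 had 378 and 452 CPM against 320.4 and 300.5 CPM.

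**Figure D4:**
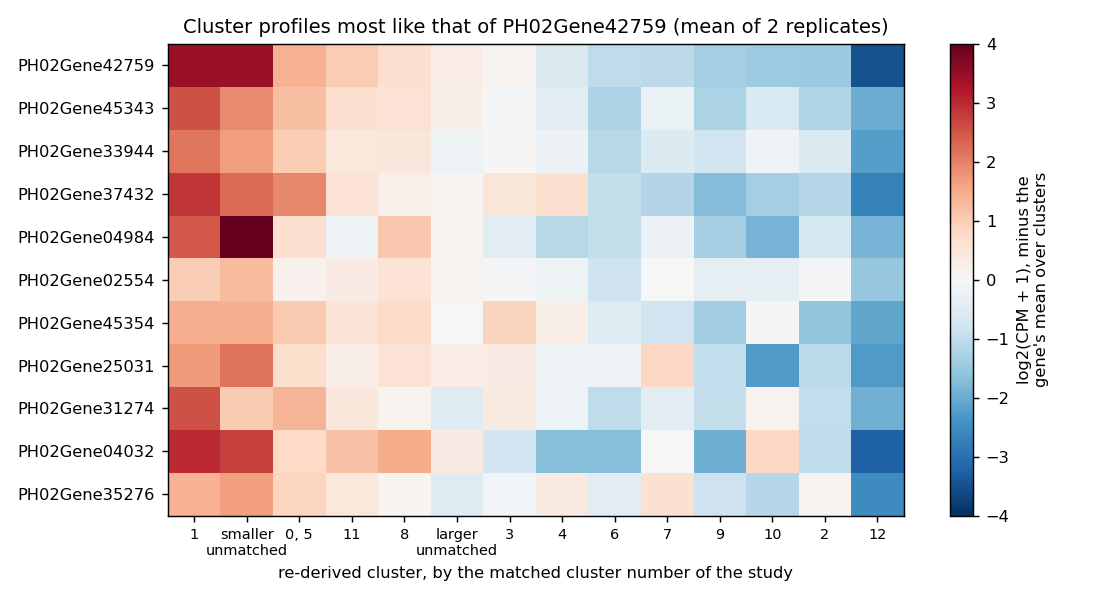
Profiles of PH02Gene42759 and of the 10 genes most like it over 14 clusters, as log2(CPM + 1) of the mean of 2 replicates minus the gene's mean over clusters. All 11 rows are highest in matched Cluster 1 or in the smaller unmatched cluster, and low in matched Cluster 12, where PH02Gene42759 had 0 UMIs.

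Genes of families linked to auxin and gibberellin formed the next comparison, as SRS factors act on both pathways in Arabidopsis. The list held 30 genes: 21 AUX/IAA genes, whose proteins repress auxin responses, with B3-ARF, GRAS and auxin metabolism genes. The GRAS genes were taken by family or description, and whether each acts in gibberellin signalling was not tested. Of these, 1 was at least 2-fold higher in matched Cluster 1 than in the cluster matched to Clusters 0 and 5 in both replicates (4.93% of all 17717 genes) and 0 were at least 2-fold lower (2.41% of all genes). The median log2 ratio was 0.37, against -0.06 over all genes. PH02Gene42759 had log2 ratios of 2.05 and 2.08 on this scale, above each of the 30 genes. That difference was part of its choice.

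The AUX/IAA genes had other maxima. Of the 21, 11 had their highest level in matched Cluster 10, as did 18.1% of all 17717 genes, and none (0) in matched Cluster 1, which was highest for 13.6% of all genes. The study selected these TFs on the same cells and reported that AUX/IAA genes favoured Cluster 10. The count is therefore a description and no independent result. The IAA20-like gene PH02Gene12702 was the gene past 2-fold, for which matched Cluster 1 had 148 and 126 CPM against 67.0 and 57.1 CPM in the cluster matched to Clusters 0 and 5, but its highest cluster was matched Cluster 8. An example of the Cluster 10 pattern is PH02Gene38761, for which matched Cluster 1 had 105 and 117 CPM and matched Cluster 10 had 684 and 566 CPM. PH02Gene42759, with 2 UMIs in all of matched Cluster 10 in the reported clustering, did not share it.

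Of the 5 GRAS genes on the list, 2 were at least 2-fold higher in subcluster 1 than in the other ground cells (3.79% of 6781 genes). Both are described as chitin-inducible and gibberellin-responsive. They were the only 2 higher genes among the 24 list genes compared, so the GRAS genes are a subgroup singled out after the fact. GRAS proteins include the DELLA repressors of gibberellin signalling, but the family name alone does not make these 2 genes such repressors. PH02Gene17912 had 248 and 310 CPM in subcluster 1 against 99.0 and 103 CPM in the other ground cells, and PH02Gene13317 had 199 and 220 CPM against 64.7 and 59.9 CPM. The other GRAS genes, PH02Gene08687, PH02Gene44779 and PH02Gene23780, had log2 ratios between -0.47 and 0.35. PH02Gene17912 and PH02Gene13317 were highest in matched Cluster 1 over all clusters, at 155 and 184 CPM and at 98.3 and 109 CPM. In matched Cluster 1 cells with PH02Gene42759, UMIs of PH02Gene17912 were 2.13 and 1.495 times those expected, which missed the ratio of 1.5 in replicate 2. Those of PH02Gene13317 were 2.09 and 1.424 times those expected, but it had only 157 UMIs in replicate 1 and was not among the genes compared.

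The 3 genes of auxin metabolism and response differed among themselves. PH02Gene00383 is described as an indole-3-acetate O-methyltransferase, the enzyme that methylates auxin. It had 24.8 and 14.98 CPM in subcluster 1, against 122 and 132 CPM in the other ground cells, and was highest in the cluster matched to Clusters 0 and 5 (140 and 160 CPM). The GH3.8-like PH02Gene13076, of a family that joins auxin to amino acids, had 55.2 and 67.4 CPM in subcluster 1 against 69.2 and 67.5 CPM in the other ground cells. The AIR12-like PH02Gene15976, of a family first known as auxin-induced in root cultures, had 119 and 185 CPM against 79.0 and 86.4 CPM and was highest in matched Cluster 1. Of 24 list genes with enough UMIs, 2 were at least 2-fold higher (3.79% of all genes) and 2 at least 2-fold lower (3.6% of all genes) in subcluster 1.

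The ground-tissue table of the study held 60 other TFs and related regulators, chosen there on these same cells. Some of them, such as PH02Gene12702 and PH02Gene17912, are also on the auxin and gibberellin list, so the counts of the lists overlap. Of these, 3 were at least 2-fold higher in matched Cluster 1 than in the cluster matched to Clusters 0 and 5 in both replicates, against 4.93% of all genes, and 4 at least 2-fold lower, against 2.41% of all genes. A high level in Cluster 1 was part of the choice of PH02Gene42759, so its rank here is a description. By the ratio of these clusters it ranked 2 of 61, after the NAC factor PH02Gene22459 with 116 and 105 CPM against 23.0 and 27.2 CPM. Next came the AUX/IAA gene PH02Gene12702 and then the AP2/ERF factor PH02Gene06476, which had 294 and 340 CPM against 155 and 135 CPM. At the other end, the AP2/ERF factor PH02Gene08959 had in matched Cluster 1 51.4 and 59.3 CPM against 215 and 246 CPM, and the RAV factor PH02Gene01449 had 25.1 and 23.6 CPM against 93.5 and 69.8 CPM.

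PH02Gene22459 was also higher in subcluster 1, with 152 and 117 CPM against 51.8 and 50.6 CPM, as were PH02Gene06476 (541 and 637 CPM against 182 and 177 CPM) and the AP2/ERF factor PH02Gene01001 (489 and 450 CPM against 162 and 167 CPM). Of the 53 regulators with enough UMIs in the ground cells, 4 were at least 2-fold higher (3.79% of all genes) and 6 at least 2-fold lower (3.6% of all genes). PH02Gene22459 had its highest level in matched Cluster 8. None of the 24 regulators and 5 list genes abundant enough for the co-detection comparison reached a ratio of 1.5 in both replicates. Genes such as PH02Gene17912 count in both numbers. Of the 1444 genes compared, 0.762% reached that ratio, so so few genes would rarely include one.

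**Figure D5:**
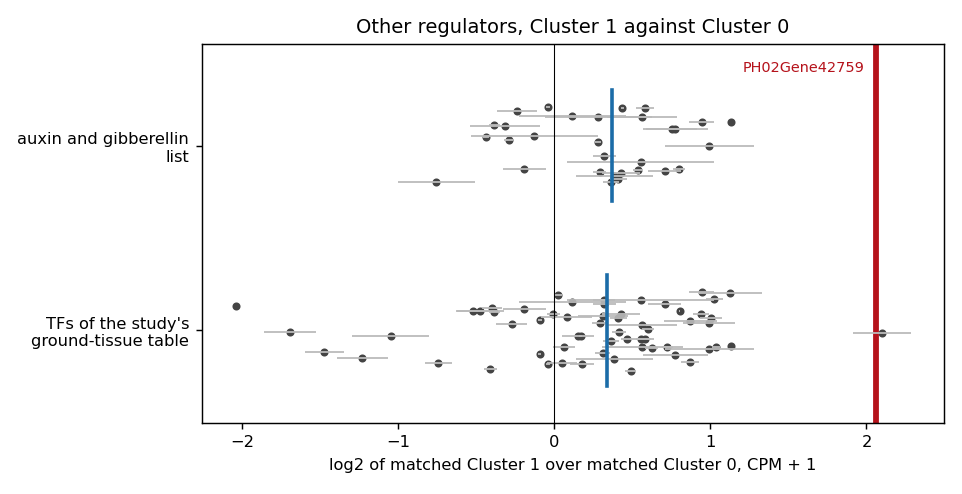
Log2 ratio of matched Cluster 1 over the cluster matched to Clusters 0 and 5 (CPM + 1). Shown are the 30 genes of the auxin and gibberellin list and 60 regulators of the study's ground-tissue table. Genes on both lists are plotted in both rows. Points are means of 2 replicates, grey lines join the replicates and blue lines are medians (0.37 and 0.34). The red band spans PH02Gene42759 (2.05 to 2.08), whose high ratio was part of its choice.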

How the data were processed

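The deposited values are counts, whole numbers of UMIs per gene and barcode, which the authors made with Cell Ranger 5.0.1 and STAR and did not normalize. Barcodes had to exceed 500 genes and 500 UMIs. The study's mitochondrial filter was not used, because the identifiers mark no gene as mitochondrial. In R 4.3.3, Seurat 5.3.0 merged the replicates without integration and clustered cells on 20 principal components at resolution 0.8, from 2000 variable genes without 58 genes (study-named genes, markers and PH02Gene42759), of which 30 were among them. The study's clusters were matched by the mean z-score of log2(CPM + 1) over their markers. CPM are summed UMIs over the summed total. The replicates differed by more than sampling noise (chi-square of 4.49 per degree of freedom over 21826 genes). Other steps used Python 3.11.15, pandas 2.3.3, matplotlib 3.10.9, scikit-learn 1.9.0, numpy 2.4.6 and scipy 1.17.1, and the co-detection script was tested on simulated data.

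No test was run on the gene's levels. PH02Gene42759 and all lists were chosen with earlier results of these data known. Genes named are the 10 most alike over clusters, the 10 highest and 5 lowest in co-detection, the hormone list, up to 5 ground-tissue TFs at each end and study markers, with others marked as chosen after their values were seen. Alternatives changed the filter, resolution, components, variable genes, thinning depth, pseudocount, minimum counts, strata, neighbours and replicates.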

Additional observations from a re-analysis of the deposited data

How the results depend on the processing

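Which cluster was the highest for PH02Gene42759 depended on the clustering. Of the alternative clusterings, only resolution 0.6 kept a cluster matched to Cluster 1 alone first (1498 cells, 121 CPM). Without the hormone and ground TF lists, a cluster matched to Clusters 1 and 5 was first (2270 cells, 116 CPM). With the study-named genes and markers kept in, an unmatched cluster of 552 cells was first, with 128 CPM and 1.02 times the second. That cluster shared 34.5% of subcluster 1. With 30 principal components, a cluster of 689 cells had 255 CPM, 1.83 times the next, and a UMI in 10.8% of its cells at 500 UMIs, and it shared 499 cells with subcluster 1 (65.0% of it). The highest cluster of at least 200 cells shared 15.1% to 65.4% of subcluster 1 over all 7 settings compared. Averaging each cell's own CPM put the small unmatched cluster first, at 165 CPM and 1.25 times matched Cluster 1. Small unmatched clusters were also first with more than 200 genes per cell (114 cells, 1.21 times the second cluster) and with 1.35 times the second (111 cells) when the next variable genes filled the places of those left out, an alternative chosen after seeing the data like that without the hormone and ground TF lists. The share of cells was 8.17% in that cluster of 111 cells, and 8.35% in an unmatched cluster of 120 cells that was first at resolution 1.0. In matched Cluster 1 it was 11.9% at full depth and 9.14% at 1000 UMIs. Without a replicate a small unmatched cluster (43 or 54 cells) was first, with 115 to 163 CPM, a ratio of 1.10 to 1.17 and a share of 5.56% to 6.98%. The highest ground subcluster had 288 CPM at resolution 0.6, where it shared 764 cells with subcluster 1, and 326 CPM at resolution 1.0, where it shared 513, and 252 to 302 CPM without a replicate. Genes with a like profile numbered 7 with a pseudocount of 10, sharing 4 of the 10 most alike, and 37 to 50 without a replicate. Co-detected genes numbered 7 of 412 compared after thinning, 5 of 1444 within subclusters and 101 of 5426 at a minimum of 50 UMIs. Of the 11 reported genes, these held 2, 4 and 11. With a replicate left out, co-detected genes numbered 23 to 63. The neighbour ratio was 1.23 with 30 neighbours and 1.28 to 1.46 without a replicate. In all, 25 of 48 alternatives stayed within the limit set for their result. That limit was the replicate SD or, for numbers of genes, a factor of 1.5 around the reported number. For the results on the highest cluster, it applied to the value of whichever cluster came first. Some of the 25 therefore describe another group of cells, such as the unmatched cluster of 552 cells, and do not show that matched Cluster 1 stayed first. The causes were not tested. The depth limits matched Cluster 12, the small unmatched cluster and matched Cluster 10 most, with floors of 3 counts at 24.6, 19.4 to 21.5 and 9.33 to 10.2 CPM. No paired analysis was possible because both libraries belong to 1 group.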
